A study of Homo sapiens with 8 samples.

Results

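Leukocyte integrins and adhesion molecules were followed as 9 genes: ITGAL, ITGAM and ITGAX, the alpha subunits of the leukocyte integrins LFA-1, Mac-1 and p150,95; ITGB2, their shared beta subunit; ITGA4 and ITGB1, the subunits of VLA-4; ICAM1 and ICAM3, immunoglobulin-family ligands of LFA-1; and SELPLG, which encodes the selectin ligand PSGL-1. They were chosen by name, as genes by which leukocytes attach to other cells and to vessel walls, out of 60664 genes in the deposited table. All 9 were among the 14899 genes tested.

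RNA-seq was made from THP-1, an established human monocytic leukemia cell line, and from a decitabine-resistant (DAC-resistant) derivative. Both lines carry the genotype label WT, and each received DMSO or 1 µM decitabine (DAC, a hypomethylating agent) for 6 days, with 2 biological replicates in each of 4 groups. The DAC-resistant line had been selected from THP-1 cells by repeated pulses of DAC over months, so it stands for 1 selected line, and the DMSO-treated DAC-resistant cells had also met the drug before. The labels call the replicates biological without saying whether they were separate cultures, and p-values then measure only the spread between these libraries, which may be technical. Expression is given as FPKM, a read count scaled by sequencing depth and by the annotated exon length of a gene. Levels of different genes can be set side by side, but they depend on that length.

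Integrins are heterodimers of an alpha and a beta subunit, and a subunit reaches the cell surface only with its partner. Inside-out signals through talin and kindlin switch them to a form that binds ligand: LFA-1 binds the ICAMs, Mac-1 and p150,95 bind complement fragment iC3b and fibrinogen, and VLA-4 binds VCAM-1 and fibronectin. PSGL-1 starts the rolling of leukocytes on selectins once sulfation, sialylation and fucosylation have completed it. ITGAM and ITGAX are also used as maturation markers of monocytes, under the names CD11b and CD11c.

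The recovered depth was 28716462 to 33414541 reads on genes in a library. It put 109 to 144 reads behind each value of ICAM3, 273 to 1797 behind those of ITGAM, 1115 to 9561 behind those of ITGAL and 19793 to 35837 behind those of ITGB2. Defining markers of the monocytic line were present: 16 of 16 reached 1 FPKM in at least 1 library, with a summed level of 838 to 972 FPKM. Among them CD86 reached it only in parental DAC libraries, at 8.93 and 8.82 FPKM. With DAC in parental cells 5 were higher and 1 lower by the 2-fold call defined below (6.66% and 2.64% of all genes). In DMSO 1 was higher and 4 were lower in the DAC-resistant line (4.45% and 4.28%). Immunoglobulin RNA set 3 libraries apart. IGKC, the kappa light chain constant gene, was at 27.6 FPKM in DAC-resistant DMSO replicate 2, and at 48.3 and 28.5 FPKM in the DAC-resistant DAC libraries, against 0.603 to 1.32 FPKM in the other 5. The summed level of 14 plasma and B cell markers was 8.95 to 16.3 FPKM in parental libraries, 9.78 and 43.0 FPKM in DAC-resistant DMSO libraries and 75 and 45.3 FPKM in DAC-resistant DAC libraries; 8 of the 14 reached 1 FPKM in at least 1 library, none was at 0 in all, and the B cell marker MS4A1 was at 0 to 0.488 FPKM. Lists for T and NK cells (4 of 12 genes at 1 FPKM or more, 22.1 to 37.1 FPKM, with TRBC1 at 0), erythroid and megakaryocytic cells (5 of 11, 5.97 to 11.8 FPKM, with PF4 and PPBP at 0) and epithelial and stromal cells (4 of 10, 0.865 to 16.4 FPKM) were low beside the monocytic markers. Some of these moved with DAC in parental cells, where 6.66% of all genes tested were called higher. The epithelial and stromal sum went from 1.03 and 0.865 to 16.4 and 16.2 FPKM, with 4 of 4 tested genes called higher (PDGFRB, COL1A1, COL3A1 and KRT8). It was 5.62 to 7.30 FPKM in the DAC-resistant line. The T and NK sum went from 22.1 and 23.4 to 32.6 and 33.5 FPKM with 3 of 4 tested genes called higher (TRAC, PRF1 and NKG7), while NCAM1, the fourth, fell from 16.8 and 17.1 to 9.79 and 10.0 FPKM. The same sum was 33.1 to 37.1 FPKM in the DAC-resistant line, where NCAM1 made up 30.3 to 34.4 FPKM and NKG7 was at 1.63 to 2.65 FPKM, TRAC at 0 to 0.167 and PRF1 at 0 to 0.0249 FPKM. Of 3 erythroid and megakaryocytic genes tested, GATA1 was called higher with DAC in parental cells, from 0.106 and 0.133 to 3.39 and 2.71 FPKM. Of 8 plasma and B cell markers tested, SDC1 was, from 0.681 and 0.383 to 2.21 and 2.14 FPKM. In these 2 lists 0 were called lower. The part of all these markers in the results was not tested, and the comparison in DMSO is also given without the library that carried IGKC.

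Promoter sequences are shown for ITGAM, ICAM1 and ITGB1, because these genes rose with DAC in parental cells and the windows shown differ widely in content of CpG, the dinucleotide at which DNA is methylated. The 250 bases before the start were read from a set of RefSeq promoters (GRCh38.p14). The set held 5 of the 9 genes: ITGA4, ITGB1, ITGAM, ICAM1 and ICAM3. Capitals mark matches, on either strand, to the PU.1 core GAGGAA, to the GC box GGGCGG (or its reverse complement) and to the palindromic motif TTCNNNGAA, which do not overlap one another in these windows.
ITGAM: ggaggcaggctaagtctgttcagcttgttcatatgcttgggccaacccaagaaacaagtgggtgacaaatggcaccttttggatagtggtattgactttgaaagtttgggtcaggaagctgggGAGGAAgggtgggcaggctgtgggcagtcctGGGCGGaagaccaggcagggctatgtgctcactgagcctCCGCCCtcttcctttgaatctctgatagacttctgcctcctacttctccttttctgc
ICAM1: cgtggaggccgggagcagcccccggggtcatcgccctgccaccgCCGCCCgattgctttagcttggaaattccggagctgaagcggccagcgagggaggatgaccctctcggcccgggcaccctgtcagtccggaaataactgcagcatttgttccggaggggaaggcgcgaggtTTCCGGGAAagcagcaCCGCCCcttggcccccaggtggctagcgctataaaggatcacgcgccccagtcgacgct
ITGB1: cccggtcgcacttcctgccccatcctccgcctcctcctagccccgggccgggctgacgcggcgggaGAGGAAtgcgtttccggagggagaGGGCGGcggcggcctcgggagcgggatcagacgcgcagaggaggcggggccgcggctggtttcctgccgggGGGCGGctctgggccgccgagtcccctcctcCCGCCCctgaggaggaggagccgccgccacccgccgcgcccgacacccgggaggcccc

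The ITGAM window lies at chr16:31259725-31259974 on the plus strand and holds 2 CpGs, with 14.7% of the 35116 RefSeq promoters holding fewer; its GC content is 53.2%. The median promoter held 11 CpGs at a GC content of 58.0%. The PU.1 core begins 127 bases before the ITGAM start, and GC boxes begin 96 and 57 bases before it. The ICAM1 window, chr19:10270870-10271119 on the plus strand, holds 23 CpGs (74.2% of promoters held fewer), GC boxes 206 and 59 bases before the start and the TTCNNNGAA motif 75 bases before it. The ITGB1 window, chr10:32958231-32958480 on the minus strand at 1 of 2 RefSeq starts, both inside the longer GENCODE gene, holds 32 CpGs (90.5% held fewer), a PU.1 core at 184 bases and GC boxes at 160, 89 and 58 bases before the start. The other ITGB1 start, with its window at chr10:32935559-32935808, held 4 CpGs (29.3% held fewer), a GC content of 41.6% and no motif. ITGA4, at chr2:181457136-181457385 on the plus strand, held 25 CpGs and none of the motifs searched. The 3 RefSeq starts of ICAM3 held 6, 12 and 18 CpGs. Also searched were the RUNX core TGTGGT, the AP-1 motif TGANTCA and a strict form of the NF-kB consensus, with no match in the 3 windows printed; variant sites that depart from the strict form were not searched, so this says nothing of NF-kB sites in ICAM1. Over all promoters, on both strands, 23.6% held GAGGAA, 42.6% GGGCGG, 11% TGTGGT, 6.57% TGANTCA, 1.93% the NF-kB consensus and 6.57% TTCNNNGAA. The TTCNNNGAA motif was added after the values were seen. A match describes letters in the window and not a bound site, and no DNA methylation was measured here.

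Levels ranked in a similar way at the ends of the scale in every group, while the order in between differed. ITGB2 had the highest mean of the 9 genes in all 4 groups, 93.6 to 162 FPKM, and ICAM3 the lowest, 1.40 to 1.64 FPKM. In parental DMSO cells ITGAL was the second at 30.7 FPKM and ITGAX the third at 25.7 FPKM, and no neighbours in the order overlapped over their libraries. In DAC-resistant DMSO cells ITGAL stood seventh at 3.69 FPKM, below ITGB1, ITGAX, ITGA4, ICAM1 and SELPLG; there the libraries of ITGB1 and ITGAX overlapped, as did those of ICAM1 and SELPLG. ITGAM and ICAM3 overlapped in DAC-resistant cells given DAC, and in parental cells given DAC the overlapping neighbours were ICAM1 with ITGAL and ITGA4 with SELPLG.

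**Figure D1:**
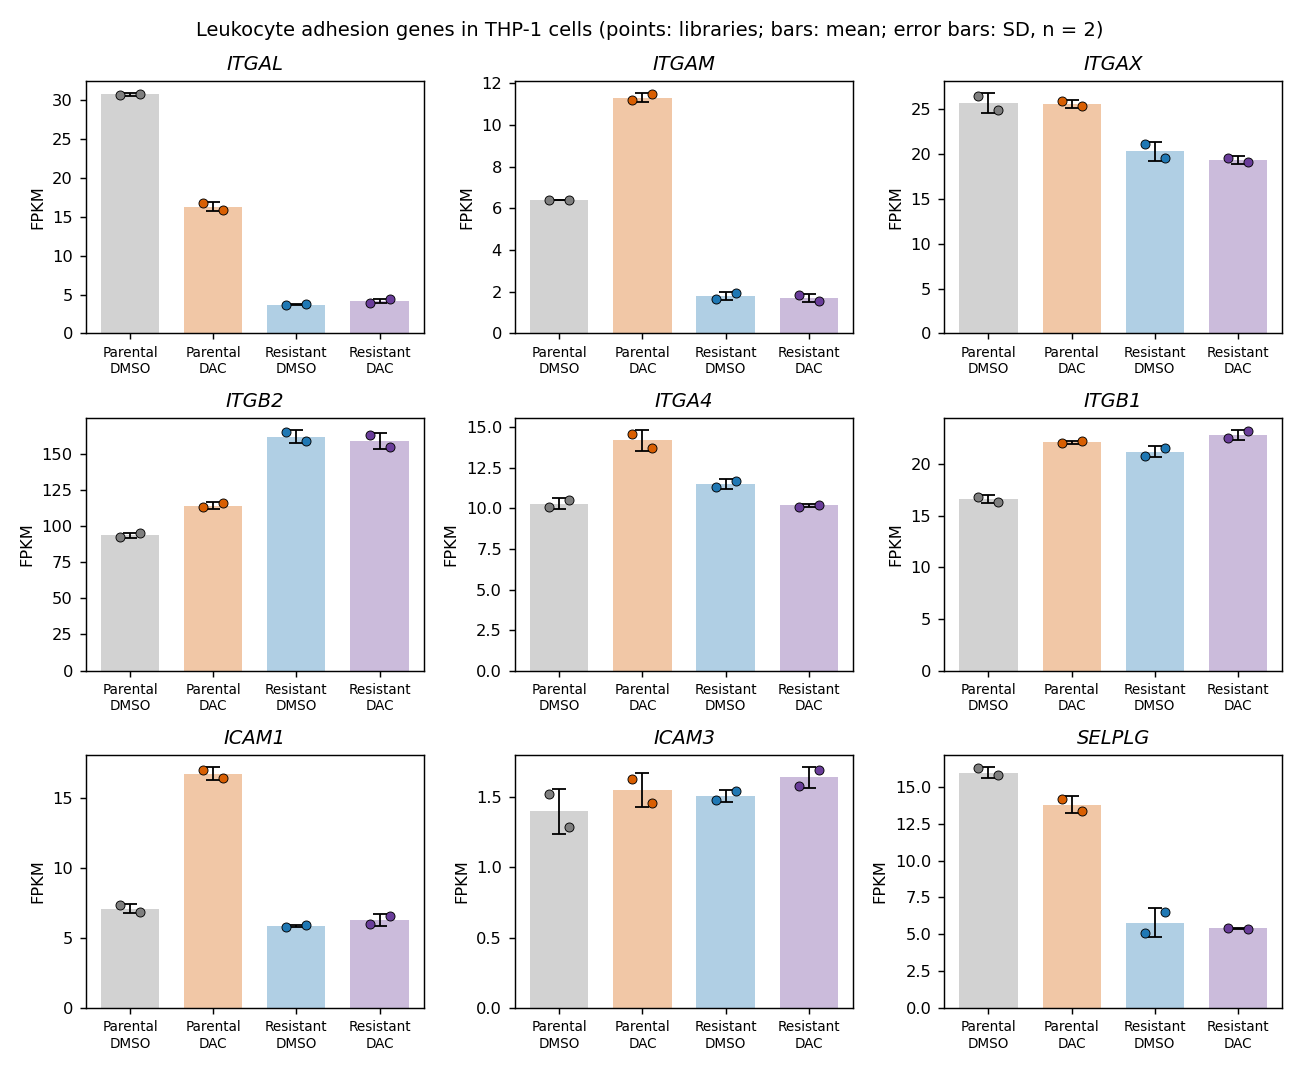
Expression (FPKM, linear axes from 0, a scale of its own for each gene) of the 9 genes in the 4 groups; points are the 2 libraries of a group, bars the mean and error bars the SD. ITGAL and ITGAM fall to 3.63 to 4.39 and 1.57 to 1.93 FPKM in the DAC-resistant libraries, ITGB2 is highest there at 155 to 165 FPKM, and ICAM1 is highest in the parental DAC libraries at 16.4 and 17.0 FPKM.

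In parental cells, the comparison of DAC with DMSO asked how the drug moved each adhesion gene in cells that had not been selected on it. ICAM1, ITGAM, ITGA4, ITGB1 and ITGB2 rose, ITGAL fell, and ITGAX, ICAM3 and SELPLG did not pass the test. By the 2-fold call, an unadjusted p of at most 0.01 with a log2 change of at least 1 in size, 1 of 9 was higher and 0 were lower, against 6.66% and 2.64% of all genes tested. By an adjusted p under 0.05 (limma, Benjamini-Hochberg over all genes tested; rose and fell are used in this sense throughout), 5 rose and 1 fell, against 33.6% and 24.1% of all genes. The median log2 change of the 9 genes was 0.29, beside 0.06 over all genes. A lower transcript level in a bulk library may mean fewer cells with the transcript or less of it in each cell, which cannot be told apart.

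ITGAL, whose product CD11a is the alpha subunit of LFA-1 (chr16:30472658-30523567, plus strand), was at 30.6 and 30.8 FPKM in parental DMSO libraries and at 16.7 and 15.9 FPKM with DAC. Both treated libraries lay well below both controls. The fold was 1.88 lower with DAC, and on the log2(FPKM + 1) scale ITGAL fell by 0.87 (SE 0.052, limma adjusted p = 2.2e-05). ITGAM, the CD11b subunit of Mac-1 (chr16:31259967-31332892, plus strand), was at 6.41 and 6.40 FPKM without the drug and at 11.2 and 11.5 FPKM with it. It thus moved the opposite way from ITGAL, by 1.77-fold, with a log2 change of 0.74 (SE 0.072, limma adjusted p = 0.0002). ITGAX, the CD11c subunit (chr16:31355134-31382999, plus strand), was at 26.5 and 24.9 FPKM in DMSO and at 25.9 and 25.3 FPKM in DAC. These ranges overlapped, and its log2 change was -0.01 with a 95% interval from -0.12 to 0.11. ITGAM and ITGAX lie only 22.2 kb apart on the same strand, and their next neighbour ITGAD, 10.3 kb on and the fourth alpha partner of ITGB2, was between 0 and 0.0995 FPKM in the 8 libraries.

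ITGB2, which encodes CD18 (chr21:44885953-44931989, minus strand), was at 92.2 and 95 FPKM in parental DMSO libraries and at 113 and 116 FPKM with DAC. The groups did not overlap, but the rise was small, 1.22-fold (log2 change 0.29, SE 0.035, limma adjusted p = 0.00055). The antisense gene ITGB2-AS1 (chr21:44921051-44929680, plus strand) shares exonic sequence with it and was at 4.88 and 5.41 FPKM in DMSO and at 13.1 and 13.7 FPKM in DAC, a log2 change of 1.23 (limma adjusted p = 7.4e-06). The strand setting of the counting was not given in the sources used here, so reads of the pair cannot be told apart where they overlap. ITGB2-AS1 amounted to 4.53% to 11.7% of the ITGB2 level.

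ITGA4, the alpha subunit of VLA-4 (chr2:181457202-181538940, plus strand), was at 10.1 and 10.5 FPKM in DMSO and at 14.6 and 13.7 FPKM in DAC. ITGB1, the beta subunit shared by the largest group of integrins (chr10:32887273-33005792, minus strand), was at 16.8 and 16.3 FPKM and then at 22.0 and 22.2 FPKM. Both subunits rose by a similar factor, 1.38-fold and 1.33-fold. The log2 changes were 0.42 (SE 0.045, limma adjusted p = 0.00029) for ITGA4 and 0.40 (SE 0.033, limma adjusted p = 9.9e-05) for ITGB1.

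ICAM1, the inducible ligand of LFA-1 and Mac-1 (chr19:10271093-10286615, plus strand), was at 7.30 and 6.87 FPKM in parental DMSO libraries and at 17.0 and 16.4 FPKM with DAC. It was the single member to pass the 2-fold call, at 2.36-fold (log2 change 1.13, SE 0.057, limma adjusted p = 9.9e-06). It ranked 848 among the 8216 genes with a positive change on the log2(FPKM + 1) scale, which understates changes of low genes. ICAM3, a ligand that leukocytes express without stimulation (chr19:10333776-10339661, minus strand), was at 1.52 and 1.29 FPKM and then at 1.63 and 1.46 FPKM. Its groups overlapped, and the log2 change was 0.08 with a 95% interval from -0.12 to 0.29. SELPLG (chr12:108621895-108633894, minus strand) was at 16.3 and 15.8 FPKM in DMSO and at 14.2 and 13.4 FPKM in DAC. Its groups did not overlap, yet the log2 change of -0.20 (SE 0.093) missed the test at a limma adjusted p of 0.11, and it passed under some of the alternative settings.

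In DAC-resistant cells the same comparison found no adhesion gene past the test. By limma 0 of 9 were called higher or lower at 2-fold, against 0.114% and 0.121% of all genes tested, and 0 passed an adjusted p in either direction, against 5.88% and 5.35% of all genes. Unadjusted limma p-values were under 0.05 for ITGA4 (0.0098), ITGB1 (0.017) and ITGAL (0.035), without a share of all genes to set beside them. Voom on recovered reads put 2, ITGA4 and ITGB1, past an adjusted p of 0.05, where 19.5% of all genes passed in either direction. The median log2 change was -0.03, beside 0.01 over all genes.

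ITGAL stayed low, at 3.63 and 3.76 FPKM in DMSO and at 3.96 and 4.39 FPKM in DAC. Its log2 change was 0.14 (95% interval 0.01 to 0.27, limma adjusted p = 0.15), positive where the parental value was negative. ITGAM was at 1.67 and 1.93 FPKM without the drug and at 1.83 and 1.57 FPKM with it, so that its groups overlapped; the interval of its log2 change ran from -0.23 to 0.12. ICAM1 was at 5.77 and 5.89 FPKM in DMSO and at 5.95 and 6.58 FPKM in DAC. A log2 change of ICAM1 above 0.22 lay outside its 95% interval in these cells. ITGB2 was at 165 and 159 FPKM and at 163 and 155 FPKM, and ITGAX at 21.1 and 19.6 FPKM and at 19.6 and 19.1 FPKM. Neither showed a difference beyond its spread. ITGA4 was at 11.3 and 11.7 FPKM in DMSO and at 10.1 and 10.2 FPKM in DAC, with groups that did not overlap and a log2 change of -0.16 (limma adjusted p = 0.07). ITGB1 was at 20.8 and 21.5 FPKM and then at 22.5 and 23.2 FPKM, a log2 change of 0.11 (limma adjusted p = 0.099). SELPLG was at 5.08 and 6.49 FPKM and at 5.43 and 5.35 FPKM, and ICAM3 at 1.48 and 1.54 FPKM and at 1.58 and 1.69 FPKM. The intervals of these last genes, -0.30 to 0.15 for SELPLG and -0.14 to 0.28 for ICAM3, include 0.

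Whether the lines differed in their response was tested by the difference between the DAC effects, resistant minus parental. It was negative for ICAM1 at -1.04 (SE 0.08, limma adjusted p = 0.00011), ITGAM at -0.79 (0.00099), ITGA4 at -0.59 (0.00046), ITGB2 at -0.32 (0.0023) and ITGB1 at -0.29 (0.0026), each with its limma adjusted p in parentheses. For ITGAL it was positive, 1.01 (SE 0.074, limma adjusted p = 8.8e-05), since the parental fall had no counterpart. ITGAX (-0.06, interval -0.22 to 0.10), ICAM3 (-0.01, interval -0.31 to 0.28) and SELPLG (0.12, interval -0.19 to 0.44) did not pass. The counts were 1 higher and 1 lower by the 2-fold call, against 3.46% and 7.16% of all genes tested, and 1 higher and 5 lower by adjusted p, against 20.9% and 28.4%. ICAM1 and ITGAL lay at the edge of the 2-fold call, and 1 of them lost it when parental DAC replicate 2, DAC-resistant DMSO replicate 1 or either DAC-resistant DAC library was left out. ICAM1 also lost it under quantile normalization (-0.965) and upper-quartile scaling (-0.947), while both adjusted p-values remained at 0.0021 or less in every alternative.

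**Figure D2:**
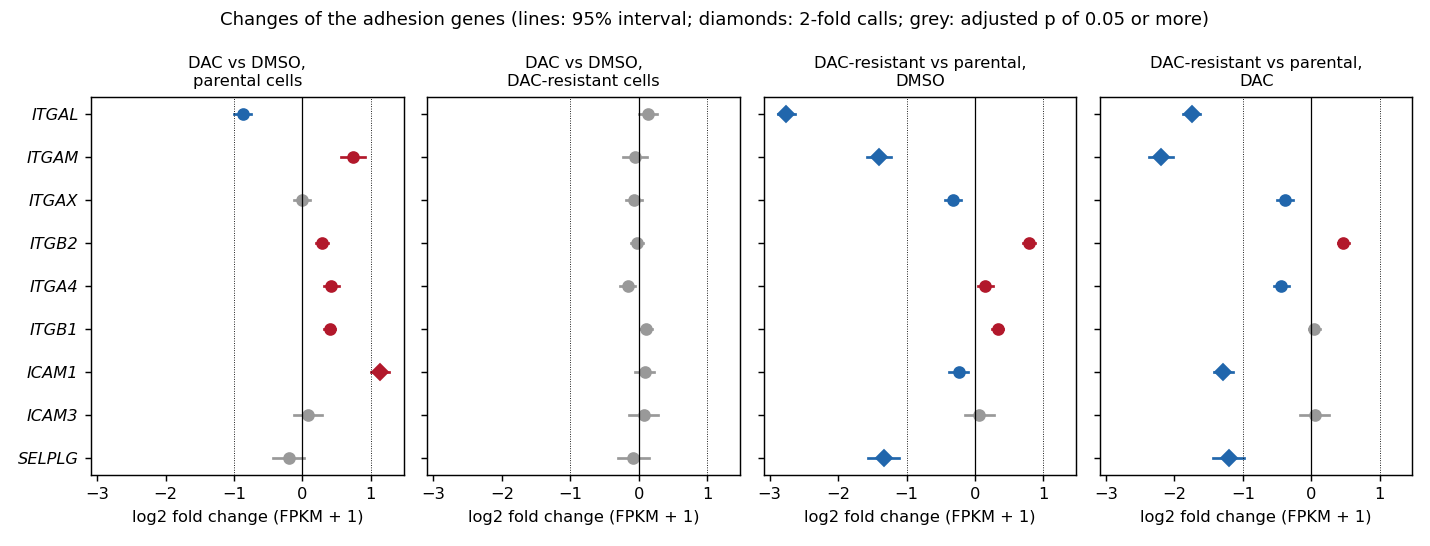
Log2 fold changes on the log2(FPKM + 1) scale of the 9 genes in 4 comparisons; points are limma estimates, lines 95% intervals, diamonds 2-fold calls, and red or blue marks genes that were higher or lower at an adjusted p under 0.05. DAC moves 6 genes in parental cells, from -0.87 for ITGAL to 1.13 for ICAM1, and none past the test in DAC-resistant cells.

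The comparison of the lines without drug asked what differed in the selected cells at rest. ITGAL, ITGAM and SELPLG were lower by the 2-fold call, ITGAX and ICAM1 were lower by less, ITGB2, ITGB1 and ITGA4 were higher, and ICAM3 did not pass. The 2-fold call took 0 higher and 3 lower, against 4.45% and 4.28% of all genes tested. By adjusted p, 3 were higher and 5 lower, against 31.3% and 26.2%. The median log2 difference was -0.24, beside 0.02 over all genes. The parental DMSO libraries also serve as the controls of the parental DAC comparison, so the values of both are set side by side and not correlated.

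ITGAL changed most. The parental DMSO libraries stood at 30.6 and 30.8 FPKM and the DAC-resistant ones at 3.63 and 3.76 FPKM, 8.31-fold lower (log2 difference -2.76, SE 0.052, 95% interval -2.88 to -2.63, limma adjusted p = 3.1e-07). By the size of the difference on this log2(FPKM + 1) scale, which understates changes of low genes, it ranked 21 among the 7150 genes with a lower level. ITGAM was 3.56-fold lower, 6.41 and 6.40 FPKM against 1.67 and 1.93 FPKM (log2 difference -1.40, limma adjusted p = 1.2e-05). SELPLG was 2.77-fold lower, 16.3 and 15.8 FPKM against 5.08 and 6.49 FPKM (log2 difference -1.33, limma adjusted p = 4.4e-05). In all 3 genes the lines were separated by far more than the distance between replicates.

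ITGB2 went the other way. Its level was 1.73-fold higher in DAC-resistant cells, 165 and 159 FPKM against 92.2 and 95 FPKM (log2 difference 0.79, SE 0.035, limma adjusted p = 6.9e-06). ITGAX, the remaining partner, was 1.26-fold lower, 21.1 and 19.6 FPKM against 26.5 and 24.9 FPKM (log2 difference -0.32, limma adjusted p = 0.0012). The common beta subunit was therefore higher where each of its 3 expressed alpha subunits was lower. ITGB2-AS1 was also higher in DAC-resistant DMSO libraries, at 7.49 and 7.31 FPKM (log2 difference 0.45, limma adjusted p = 0.00066).

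ITGB1 was 1.28-fold higher in the DAC-resistant line, 20.8 and 21.5 FPKM against 16.8 and 16.3 FPKM (log2 difference 0.33, limma adjusted p = 0.00021). For ITGA4 the difference was 1.12-fold, 11.3 and 11.7 FPKM against 10.1 and 10.5 FPKM (log2 difference 0.15, limma adjusted p = 0.029). This call was lost without a filter on low values (adjusted p = 0.057), under quantile normalization (0.25), upper-quartile scaling (0.32), a fit to the 4 libraries alone (0.053), and without parental DMSO replicate 1 (0.14), DAC-resistant DMSO replicate 1 (0.055) or DAC-resistant DMSO replicate 2 (0.13). ICAM1 was 1.21-fold lower, 5.77 and 5.89 FPKM against 7.30 and 6.87 FPKM (log2 difference -0.24, limma adjusted p = 0.01; 0.059 without parental DMSO replicate 1). ICAM3 differed by 0.06 on the log2 scale, with an interval from -0.14 to 0.27. Without DAC-resistant DMSO replicate 2, the library with IGKC, the 3 genes called were again ITGAL at -2.78, ITGAM at -1.47 and SELPLG at -1.48, and ITGB2 was at 0.81.

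In the presence of DAC the lines differed in the same direction for ITGAL, ITGAM, SELPLG, ITGAX, ICAM1 and ITGB2, with ICAM1 added to the 2-fold calls. These were 0 higher and 4 lower, against 5.29% and 9.17% of all genes tested, and by adjusted p 1 was higher and 6 lower, against 32.0% and 35.1%. The median log2 difference was -0.44, beside -0.03 over all genes. ITGAM had the largest difference, 11.2 and 11.5 FPKM in parental and 1.83 and 1.57 FPKM in DAC-resistant libraries, which is 6.68-fold lower (log2 difference -2.19, limma adjusted p = 1e-06). ITGAL was 3.91-fold lower (-1.74, adjusted p = 7.2e-07), ICAM1 2.67-fold lower (-1.29, 3.4e-06) and SELPLG 2.56-fold lower (-1.21, 4.2e-05) by limma. ITGB2 was 1.39-fold higher (0.47, limma adjusted p = 3.7e-05). ITGA4, slightly higher in DMSO, was lower in DAC, at -0.44 (limma adjusted p = 0.00017). ITGB1 was at 0.04 with an interval from -0.04 to 0.12. The immunoglobulin RNA was in both DAC-resistant DAC libraries, so no value free of it can be given here; with either one left out, 4 genes were called.

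Because an integrin needs both subunits, the levels were also set against each other in each library, as a description with no test. The summed level of ITGAL, ITGAM, ITGAX and ITGAD was 63.4 and 62.2 FPKM in parental DMSO libraries and 53.9 and 52.7 FPKM in parental DAC libraries. It was 26.4 and 25.3 FPKM in DAC-resistant DMSO and 25.4 and 25.0 FPKM in DAC-resistant DAC libraries. For each FPKM of these alpha subunits there were 1.45 and 1.53 FPKM of ITGB2 in parental DMSO libraries, 2.09 and 2.20 with DAC, 6.27 and 6.30 in DAC-resistant DMSO and 6.40 and 6.20 in DAC-resistant DAC libraries. The ratio of beta to alpha FPKM was thus higher in every DAC-resistant than in every parental library. ITGAL made up 48.2% and 49.6% of the alpha sum in parental DMSO libraries, 31.0% and 30.2% after DAC, and 13.8% to 17.6% in the DAC-resistant line. ITGAM went from 10.1% and 10.3% to 20.7% and 21.8% in parental cells, and held 6.27% to 7.64% in the DAC-resistant line. ITGAX, at 40.1% to 48.0% in parental libraries, held 76.2% to 79.9% in DAC-resistant ones. So the main alpha transcript was that of LFA-1 in parental DMSO cells and that of p150,95 in the other groups.

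**Figure D3:**
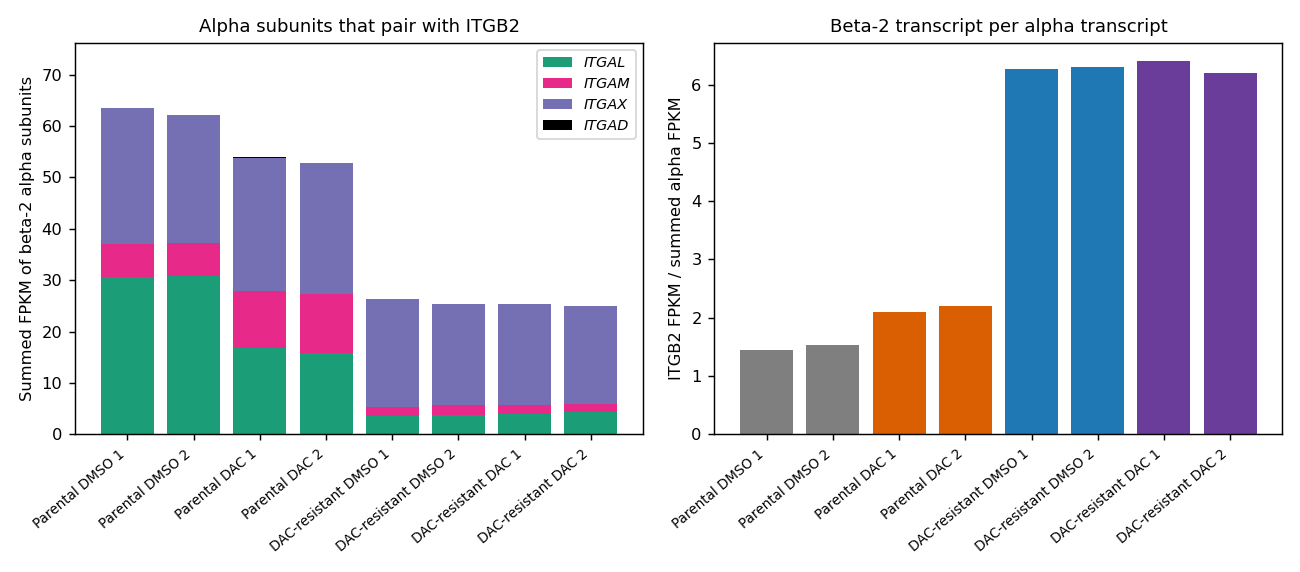
Left, FPKM of the 4 alpha subunits that pair with ITGB2, stacked for each of the 8 libraries; right, FPKM of ITGB2 divided by that sum. The sum is 52.7 to 63.4 FPKM in parental and 25.0 to 26.4 FPKM in DAC-resistant libraries, and the ratio 1.45 to 2.20 and 6.20 to 6.40.

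For ITGB1 the ratios lay closer together. The alpha subunits ITGA1 to ITGA11 and ITGAV were summed, though ITGA4 for one also pairs with ITGB7. Their sum was 3.39 and 3.65 times the ITGB1 level in parental DMSO libraries and 3.34 and 3.31 times in parental DAC libraries. It was 3.92 and 3.82 times in DAC-resistant DMSO and 3.45 and 3.26 times in DAC-resistant DAC libraries. FPKM divides by all annotated exon bases, 14561 for ITGB1, so a ratio between genes compares libraries and does not give the proportion of subunits. The lines did not overlap in DMSO and did in DAC. Within that sum ITGA4 held 17.7% to 19.8% in parental and 13.0% to 14.3% in DAC-resistant libraries, while ITGA5, the fibronectin receptor subunit, held 41.7% to 44.5% and 53.7% to 56.0%. The ratio of ITGB2 to ITGB1, with the same limit, was 5.11 to 5.81 in parental and 6.69 to 7.94 in DAC-resistant libraries.

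The neighbours of ICAM1 on chromosome 19 had other patterns. ICAM4, which begins 0.34 kb after ICAM1, was listed at 0 in all 8 libraries. ICAM5 (telencephalin; chr19:10289952-10296778, plus strand) was at 0.184 and 0.285 FPKM in parental DMSO, 0.37 and 0.638 in parental DAC, 3.34 and 3.42 in DAC-resistant DMSO and 3.99 and 3.55 FPKM in DAC-resistant DAC libraries. It was higher in every DAC-resistant library than in every parental one, with a log2 difference of 1.83 in DMSO (limma adjusted p = 2.6e-05) and 1.67 in DAC (2.3e-05). Its log2 change with DAC, 0.28 in the parental line (0.072) and 0.12 in the DAC-resistant one (0.56), passed in neither. Within this locus, then, ICAM1 rose with DAC in parental cells, ICAM5 was higher in the DAC-resistant line, and ICAM3 passed neither test.

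The lists of related genes were written by hand and are described by counts and medians, beside the shares of all genes tested, since many genes moved with DAC in parental cells. Of 20 other integrin subunits, 11 were tested; 6 rose and 1 fell with DAC in parental cells (33.6% and 24.1% of all genes), and 0 rose and 1 fell in DAC-resistant cells (5.88% and 5.35%). ITGA5 had the highest level, 23.8 and 24.9 FPKM in parental DMSO and 44.9 and 44.1 FPKM in DAC-resistant DMSO libraries (log2 difference 0.84, limma adjusted p = 7.4e-06). ITGA2B, the platelet integrin subunit, rose with DAC in parental cells from 0.509 and 0.544 to 3.17 and 3.01 FPKM (log2 change 1.42, limma adjusted p = 4.4e-05). ITGB7, the other beta partner of ITGA4, was at 2.49 and 1.97 FPKM in parental DMSO and at 5.07 and 5.70 FPKM in parental DAC libraries, against 0.897 to 1.10 FPKM in the DAC-resistant line; the lines differed in DAC by -1.73 (limma adjusted p = 1.6e-05). ITGB5 differed there by -1.03 (limma adjusted p = 0.00017).

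Of 20 genes for integrin activation and the link to the cytoskeleton, all tested, 12 rose and 6 fell with DAC in parental cells (33.6% and 24.1% of all genes), with a median log2 change of 0.26 beside 0.06 over all genes. In DAC-resistant cells 2 rose and 3 fell (5.88% and 5.35% of all genes). FERMT3, the kindlin that activates leukocyte integrins, went from 33.7 and 35.3 to 60.2 and 60.8 FPKM in parental cells and from 40.6 and 38.1 to 32.4 and 30.4 FPKM in DAC-resistant cells. The effects were opposite, 0.79 and -0.32, and differed by -1.11 (limma adjusted p = 3.2e-05). CYTH1, cytohesin-1, which binds the ITGB2 tail, rose by 1.01 in parental cells (limma adjusted p = 1.4e-05). With DAC in both lines, LIMS1 (PINCH1) was lower in the DAC-resistant line at a log2 difference of -1.32, and so was APBB1IP (RIAM, which brings talin to integrins) at -1.0. ZYX, zyxin, had the highest level of the list, 97.1 to 128 FPKM.

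Of 14 signalling kinases and adaptors, all tested, 9 rose and 3 fell with DAC in parental cells (all genes, 33.6% and 24.1%), and 3 rose and 2 fell in DAC-resistant cells (all genes, 5.88% and 5.35%). SRC was at 4.02 and 3.71 FPKM in parental DMSO and 10.0 and 10.4 FPKM in parental DAC libraries (log2 change 1.21, limma adjusted p = 1.4e-05). FYN moved against it, from 10.7 and 10.5 to 3.69 and 3.53 FPKM in parental cells, and from 11.7 and 11.6 to 18.4 and 17.0 FPKM in DAC-resistant cells. The DAC effects on FYN were -1.33 and 0.56 and differed by 1.9 (limma adjusted p = 4.3e-06), a direction shared with ITGAL among the adhesion genes. BCAR1 rose by 0.93 in parental cells and was 0.95 higher in the DAC-resistant line in DMSO. LYN (-1.06) and FGR (-1.45), myeloid kinases of the Src family, were lower in the DAC-resistant line under DAC.

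Of 15 other integrin ligands and junctional adhesion molecules, 9 were tested; 6 rose and 1 fell with DAC in parental cells, where 33.6% and 24.1% of all genes did, and 0 rose and 1 fell in DAC-resistant cells, where 5.88% and 5.35% did. SPP1, osteopontin, was at 0.013 and 0.0091 FPKM in parental DMSO and at 4.37 and 4.6 FPKM in parental DAC libraries (log2 change 2.44, limma adjusted p = 3.8e-06), and at 0 to 0.0045 FPKM in the DAC-resistant line. VCAM1, the VLA-4 ligand, was at 0.0573 and 0.0436 and then at 1.71 and 1.56 FPKM (1.33, limma adjusted p = 9.2e-05). PECAM1, a homophilic molecule of the leukocyte and endothelial junction, was lower in the DAC-resistant line in DMSO, 16.4 and 17.1 against 42.3 and 42.3 FPKM (-1.29, limma adjusted p = 1.5e-06). F11R, which encodes JAM-A, a further LFA-1 ligand, was higher there, 29.4 and 30.1 against 13.9 and 14.1 FPKM (1.04, limma adjusted p = 2e-05). TGFBI, a matrix ligand, had the highest mean of the list over all 8 libraries, at 39.0 to 77.5 FPKM, though PECAM1 was above it in parental DAC libraries.

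SELPLG has to be modified before it binds a selectin, and of 15 selectins and genes of selectin ligand synthesis, 12 were tested. With DAC 6 rose and 4 fell in parental cells (33.6% and 24.1% of all genes), while 0 rose and 2 fell in DAC-resistant cells (5.88% and 5.35%). In DMSO 1 was higher and 6 were lower in the DAC-resistant line (31.3% and 26.2% of all genes), and in DAC 2 were higher and 10 lower (32.0% and 35.1%). ST3GAL6, a sialyltransferase, was at 3.99 and 3.40 FPKM in parental DMSO and at 1.26 and 1.08 FPKM in DAC-resistant DMSO libraries (-1.11, limma adjusted p = 8.6e-05). FUT7, the fucosyltransferase that completes sialyl Lewis x, was at 5.18 and 5.32 against 2.59 and 2.30 FPKM (-0.86, limma adjusted p = 0.00017). TPST1, a tyrosine sulfotransferase, rose with DAC in parental cells by 1.15 (limma adjusted p = 0.00025). CD44, another selectin ligand and the hyaluronan receptor, was at 26.6 and 26.0 against 13.1 and 13.7 FPKM in DMSO (-0.93, limma adjusted p = 8.1e-06). SPN, leukosialin, had the highest level at 62.9 to 88.6 FPKM.

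Of 12 monocyte maturation genes tested out of 16, 9 rose and 3 fell with DAC in parental cells (33.6% and 24.1% of all genes), with a median log2 change of 1.13, and 0 rose and 2 fell in DAC-resistant cells (5.88% and 5.35%). CD14, the lipopolysaccharide co-receptor, went from 1.45 and 1.58 to 19 and 20.8 FPKM in parental cells and was at 0.75 to 1.37 FPKM in the DAC-resistant line. CD86, a costimulatory ligand, rose by 3.0. LYZ, lysozyme, rose from 11.4 and 12.6 to 46.7 and 48.9 FPKM. CCR2 and CX3CR1, chemokine receptors of monocytes, fell with DAC in parental cells by 1.41 and 0.82 on the log2 scale, and both were lower in the DAC-resistant line in DMSO (-1.63 and -1.82), as ITGAL was. Of the list, CSF1R went from 13.8 and 14.6 to 26.3 and 27.4 FPKM with DAC and was at 5.95 to 6.83 FPKM in DAC-resistant libraries. MNDA, a myeloid nuclear antigen, rose from 22.7 and 21.5 to 59.3 and 59.0 FPKM with DAC in parental cells.

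Of 16 transcription factors of myeloid adhesion genes, 11 rose and 3 fell with DAC in parental cells, against 33.6% and 24.1% of all genes, and 3 rose and 2 fell in DAC-resistant cells, against 5.88% and 5.35%. SPI1, which encodes PU.1, was at 102 and 102 FPKM in parental DMSO, 129 and 125 in parental DAC, 72.4 and 67.4 in DAC-resistant DMSO and 76.1 and 72.8 FPKM in DAC-resistant DAC libraries. JUN and FOS rose by 1.74 and 1.75 in parental cells and were 1.66 and 1.54 higher in DAC-resistant DMSO cells. NFKB1 was lower in the DAC-resistant line in DMSO (-1.33, limma adjusted p = 1.6e-05).

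ICAM1 is a known NF-kB target, and 15 other targets were all tested. With DAC 14 rose and 0 fell in parental cells (33.6% and 24.1% of all genes), with a median log2 change of 1.57, and 3 rose and 0 fell in DAC-resistant cells (5.88% and 5.35%). By the 2-fold call 9 were higher and 0 lower in parental cells, where 6.66% of all genes were called higher. CCL2 went from 3.48 and 3.60 to 90.7 and 89.6 FPKM and CXCL8 from 1.13 and 1.38 to 41.9 and 40.5 FPKM. IL1B and CCL3 rose by 3.08 and 2.48. NFKBIA, the inhibitor that NF-kB itself induces, was at 43.1 and 43.5 FPKM, then at 87.6 and 88.1 FPKM. Between the lines in DMSO the list was split, with 6 higher and 8 lower in DAC-resistant cells (31.3% and 26.2% of all genes). TNF was at 35.3 and 35 FPKM there against 8.18 and 7.94 FPKM in parental cells, and it rose with DAC in the DAC-resistant line to 51.1 and 49.9 FPKM (0.51, limma adjusted p = 0.0012). CXCL8 was also higher in DAC-resistant DMSO cells, at 4.22 and 4.2 FPKM (1.21, limma adjusted p = 0.00042), while CCL2, RELB and NFKBIA were lower (-1.75, -1.45 and -1.02).

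**Figure D4:**
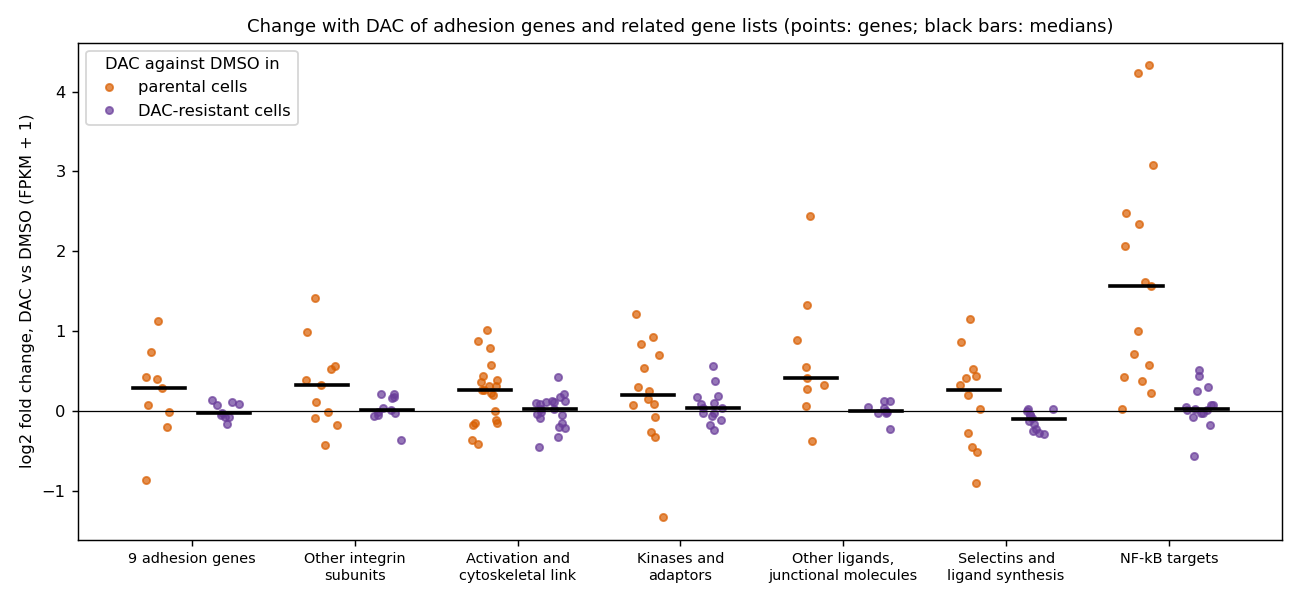
Log2 fold changes with DAC, on the log2(FPKM + 1) scale, of the 9 adhesion genes and of 6 related lists; orange points are genes in parental cells, purple points the same genes in DAC-resistant cells, and black bars medians. The NF-kB targets spread furthest in parental cells, with a median of 1.57 against 0.29 for the adhesion genes, and in DAC-resistant cells the medians lie between -0.10 and 0.04.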

How the data were processed

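RNA-seq of 8 libraries, made with an mRNA kit, was analysed. Per the submitters' processing notes and the study's methods, reads were checked with FastQC, trimmed with cutadapt 1.9.1, aligned to hg38 with HISAT2 2.1.0, handled with SAMtools 1.6 and counted with HTSeq 0.13.5 on Ensembl genes. The authors deposited FPKM values multiplied by 1000 for 60664 genes and 1264 repeat families; they were divided by 1000 here, and the repeat families were not used. Every column matched a sample by name, and no replicates held identical values.

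With GENCODE release 44 exon lengths, 87.8% of values below 3000 reads were whole reads within 0.02. ITGB2 was not whole at its GENCODE length of 7300 bases, and a length of 6869 bases was used for its reads only. Recovered reads came to 104.3% to 104.7% of the totals used by the authors for scaling; the reason was not found. These reads gave the depth and the input of voom.

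Genes that reached 1 FPKM in 2 or more libraries were kept, and log2(FPKM + 1) was fitted with limma 3.58.1 (R 4.3.3) as 4 group means with trended moderation (residual degrees of freedom 4, prior 2.5), and p-values were adjusted by Benjamini-Hochberg over the 14899 genes tested. Changes of low genes are understated on this scale. The 2-fold call follows the thresholds of the study's volcano plots. An exact permutation test of 2 against 2 libraries cannot go below p = 0.333, so none is given. On data simulated for the parental DAC comparison (13640 genes tested), 75.3% of 190 genes changed by 1.5 were called, with 8 unchanged genes. The simulation used a fixed spread that was not estimated from these libraries, and it changed far fewer genes than moved here. It checks the procedure and gives no error rate for these data. The members, the lists and the rule for named genes (all members; of each other list the most abundant gene and up to 4 with the largest 2-fold calls in a comparison; all genes of the ITGAM and ICAM1 clusters) were chosen with earlier results of these data known; a gene named by one comparison may be given in others, and a few genes the rule takes are not reported here. Alternatives were a pseudocount of 0.1, other filters, TPM, quantile and upper-quartile scaling, a replicate block, 4 libraries alone, unmoderated variances, voom and leaving out each library. Promoter sequences are those of RefSeq, GRCh38.p14.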

Additional observations from a re-analysis of the deposited data

Results flagged for a closer look

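For 6 of the 9 adhesion genes the effect of DAC differed between the lines by the interaction test (limma, adjusted p under 0.05; 20.9% of all genes tested were higher and 28.4% lower by it), resistant minus parental on the log2(FPKM + 1) scale: ICAM1 -1.04, ITGAM -0.79, ITGA4 -0.59, ITGB2 -0.32, ITGB1 -0.29 and ITGAL 1.01. In parental cells all of these genes but ITGAL rose, and in DAC-resistant cells none passed the test. With 2 libraries in a group, single libraries were not examined as outliers.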

How the results depend on the processing

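Across all alternatives, single-gene results kept direction and side of the threshold in 757 of 796 values; 12 newly passed, 8 no longer passed and 19 changed sign, all of the last for values near 0. The 2-fold calls in the line comparisons and in parental cells were of the same genes throughout. In DAC-resistant cells, 1 gene passed a limma adjusted p with a mean of at least 5 FPKM (ITGA4, 0.044), where ICAM3 could not be tested. With that filter 1970 of all 7239 genes tested passed. After rescaling to TPM 1 gene passed (ITGB1, 0.048). With voom 2 passed, where 2902 of all 14873 genes did. For the difference between the DAC effects, 1 gene was called under quantile normalization and 1 under upper-quartile scaling (ITGAL, with ICAM1 at -0.965 and -0.947), and 1 to 2 when single libraries were left out. SELPLG fell with DAC in parental cells by 0.311 under quantile normalization (adjusted p = 0.028) and upper-quartile scaling (0.03), and passed with 4 libraries alone (0.023), with voom (0.024) and without either DAC-resistant DMSO library (0.013). ITGB1 was higher in DAC-resistant than parental cells under DAC after rescaling to TPM (0.17, adjusted p = 0.0041). SELPLG had a difference between the DAC effects of 0.272 (0.03) without DAC-resistant DMSO replicate 2. The cause was not tested. Quantile normalization moved the median change of all genes in parental DAC cells by -0.11, and TPM moved that between lines under DAC by 0.11.

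Signs changed as follows, with ranges over the libraries left out in turn. In parental DAC cells ICAM3 was at -0.0436 under quantile normalization, and ITGAX ran from -0.0474 to 0.0361, positive without parental DAC replicate 2 or parental DMSO replicate 1. In DAC-resistant cells ITGB2 was at 0.000373 after rescaling to TPM and ran from -0.0644 to 0.00645, ITGAM from -0.124 to 0.016 and SELPLG from -0.228 to 0.0713; the positive values were without DAC-resistant DAC replicate 2 (ITGB2, ITGAM) or DAC-resistant DMSO replicate 2 (ITGAM, SELPLG). Between the lines in DMSO, ICAM3 ran from -0.00438, without parental DMSO replicate 2, to 0.132. For the difference between the DAC effects, ICAM3 was at 0.0272 (TPM), 0.0972 (quantile) and 0.0504 (upper quartile), and ran from -0.0815 to 0.0546, positive without parental DMSO replicate 2, parental DAC replicate 1, DAC-resistant DMSO replicate 2 or DAC-resistant DAC replicate 1. ITGAX was at 0.00406 (quantile) and 0.0443 (upper quartile), and SELPLG at -0.0271 without DAC-resistant DMSO replicate 1.

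Same-numbered replicates of different groups did not deviate together (correlations -0.022 to 0.02), so the numbers only name libraries. With a replicate block, 1 gene was called in parental and 0 in DAC-resistant cells, and no call of the 9 genes changed; over all genes, 1247 passed an adjusted p of 0.05 in DAC-resistant cells with the block and 1673 without it. Leaving out a library leaves 1 in its group, which is assumed to vary like the others. At 109 to 144 reads, depth limits what can be said of ICAM3.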
